A study of Homo sapiens with 6 samples.

Results

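The 38 genes described here encode proteins of macroautophagy and include VMP1, the gene in which MIR21 lies. They were chosen by symbol and all 38 were found among the 58174 genes of the deposited table. Macroautophagy encloses cytoplasm in a double membrane, the autophagosome, which fuses with lysosomes for digestion. The ULK kinase complex starts the process, a class III PI3-kinase complex marks the membrane with PI3P, and lipid is delivered by ATG2 and ATG9 proteins. Conjugation enzymes then attach small ubiquitin-like proteins of the ATG8 family (LC3 and GABARAP) to the membrane, where cargo receptors bind them. VMP1 and TMEM41B are lipid scramblases of the endoplasmic reticulum that act early in this process.

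Messenger RNA was measured by polyA RNA-seq in A549, an established human cell line from a lung adenocarcinoma. Parental cells (Ctrl, 3 libraries) were compared with cells lacking MIR21 after CRISPR/Cas9 editing with a pair of guide RNAs (MIR21-KO, 3 libraries), all taken 48 h after seeding in the same medium. MIR21-KO cells came from single sorted cells, and how many clones stand behind the 3 libraries is not stated, so differences between clones and effects of the deletion cannot be told apart. The study calls the samples of each group independent but does not say whether they were separate cultures or clones, and p-values measure the spread between these libraries.

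Values are FPKM, fragments relative to gene length and to the size of the library. The reads behind them summed to between 10631667 and 14345209 per library, and the members had between 125 and 13326 reads in a library. Of the epithelial markers, KRT8, KRT18 and KRT19 were abundant in every library, while EPCAM stayed between 0.389 and 1.65 FPKM. The summed epithelial markers were 1194 to 1288 FPKM in Ctrl and 776 to 1106 FPKM in MIR21-KO, and CDH1 fell from 8.18 to 2.86 FPKM on average (FDR = 0.000175, limma). KRT19 went the other way, from 88.3 to 109.2 FPKM on average, and was not called (FDR = 0.206, limma). KRT8, KRT18 and EPCAM had lower means in MIR21-KO but were not called either. The part of these marker differences in the values of the autophagy genes was not tested. The summed blood and endothelial markers did not exceed 0.298 FPKM in any library. The MIR21 gene itself was listed at 0 in all 6 libraries, so these libraries do not check the deletion. In bulk RNA, fewer cells with a transcript and less transcript per cell cannot be told apart.

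Upon MIR21 deletion, 6 of the 38 autophagy genes (15.8%) passed an FDR of 0.01, against 16.0% of all 16006 genes tested. Hence the share of changed genes was near that of the whole transcriptome. VMP1, WIPI1, MAP1LC3B, GABARAPL1 and OPTN were higher and TMEM41B was lower in MIR21-KO cells. The 5 higher genes made up 13.2% of the members, against 7.66% of all genes tested, and the 1 lower gene made up 2.63%, against 8.38%. Among protein-coding genes alone 19.7% were called in the same fit. The median log2 fold change was 0.02 over the members and -0.02 over all genes tested. Ctrl and MIR21-KO libraries did not overlap for 15 members (39.5%), against 48.1% of all genes. In 8 of these members MIR21-KO was higher (22.8% of all genes) and in 7 it was lower (25.2% of all genes). An unadjusted p under 0.05 was found for 11 members, and for 43.2% of all genes.

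**Figure D1:**
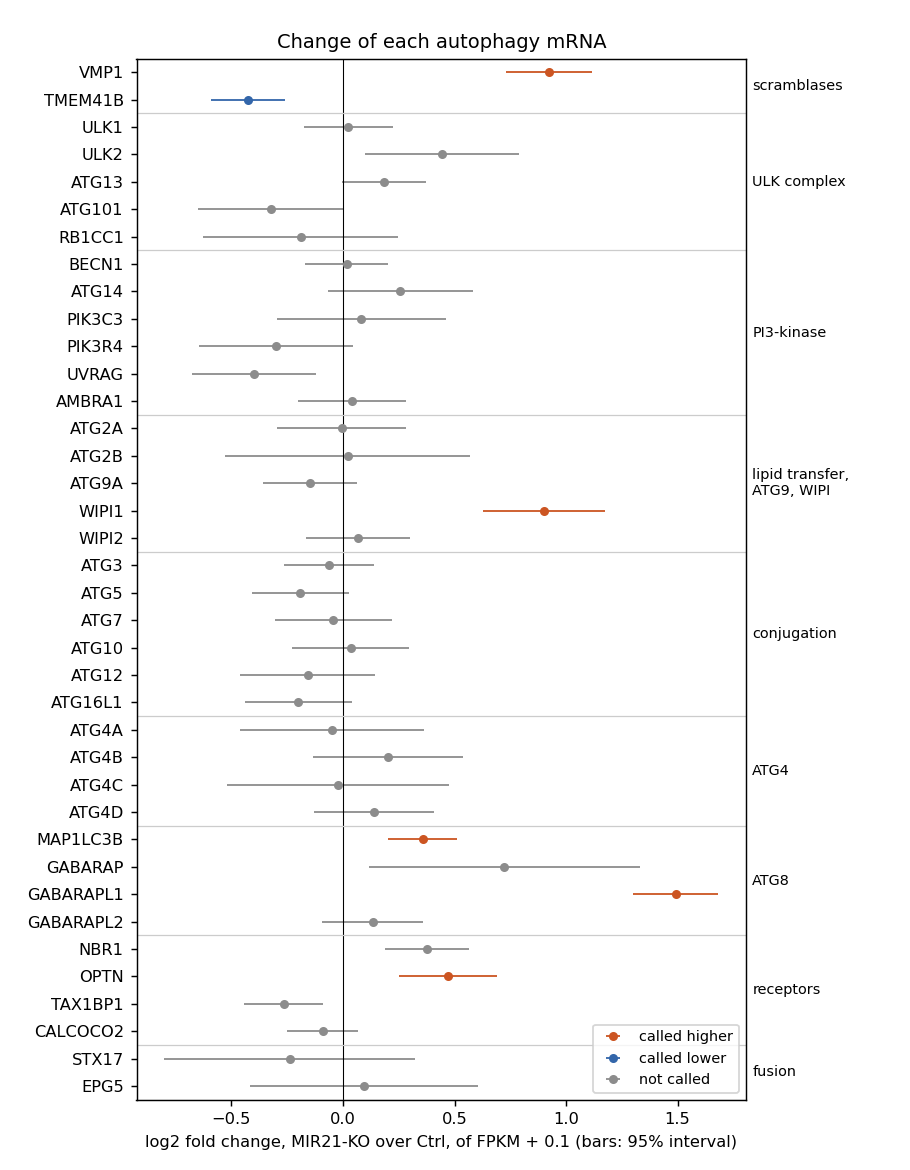
Log2 fold change of FPKM + 0.1 in MIR21-KO over Ctrl cells (x axis) for each of the 38 autophagy genes, grouped by role. Points are limma estimates from 3 libraries per group and bars their 95% intervals. The 5 genes called higher and the 1 called lower are coloured, and most others lie close to 0.

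The calls differed in how far they rested on single libraries. VMP1 and GABARAPL1 passed in each of the 16 alternative analyses tried, WIPI1 in 12, TMEM41B in 9, OPTN in 8 and MAP1LC3B in 7. With Ctrl replicate 1, 2 or 3 left out, 2, 3 and 2 members were called, and without MIR21-KO replicate 1, 2 or 3 the counts were 4, 2 and 7. Over all genes tested, the share called in these smaller fits ranged from 4.80% to 21.2%.

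VMP1 was the most abundant of the 38 mRNAs in both groups, with a Ctrl mean 11.96 times that of the median member. It measured 70.7, 76.8 and 77.8 FPKM in the Ctrl libraries and 134.6, 144.5 and 148.5 FPKM in the MIR21-KO libraries. Every MIR21-KO library thus lay far above every Ctrl library. The mean rose from 75.1 ± 3.83 to 142.5 ± 7.18 FPKM (SD, n = 3 each), a log2 fold change of 0.92 ± 0.081 (SE) with an FDR of 0.000473 (limma). Without VMP1, the summed FPKM of the other members was 311 ± 3.06 in Ctrl and 329.7 ± 6.43 in MIR21-KO.

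MIR21 lies at the 3′ end of VMP1, on the same strand. In GENCODE 29 (GRCh38), VMP1 spans chr17:59707192-59842255 on the plus strand and MIR21 spans chr17:59841266-59841337. An exon of 1 among 17 annotated transcripts of VMP1, a retained-intron form, crosses MIR21 and spans chr17:59837931-59842255. The longest coding transcript ends 174 bases before MIR21. Of the 6916 bases of exon over which the reads of VMP1 were counted, 2533 (36.6%) lie only in the exon that crosses MIR21. One value per gene therefore cannot separate VMP1 mRNA from longer transcripts that run through the edited site, and the part of each in the rise was not tested.

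The mature miR-21-5p (RefSeq, GRCh38.p14, chr17:59841273-59841294, plus strand) is shown because its seed is what target sites pair with. Capitals mark the seed, bases 2 to 8.
hsa-miR-21-5p: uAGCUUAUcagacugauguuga

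Of the 10 protein-coding genes nearest to VMP1, 9 were tested, and AC005702.1 was listed at 0 in all libraries. PTRH2, a mitochondrial peptidyl-tRNA hydrolase whose 5′ end overlaps that of VMP1 on the other strand, measured 15.6, 17.5 and 16.0 FPKM in Ctrl and 12.4, 10.9 and 11.2 FPKM in MIR21-KO. It was the only neighbour called, 1 of the 9 tested (11.1%), against 16.0% of all genes tested. The log2 fold change of PTRH2 was -0.50 ± 0.085 (SE) with an FDR of 0.00548 (limma). This call was lost without any 1 of the Ctrl libraries or MIR21-KO replicate 2. Of the other neighbours, RPS6KB1, the S6 kinase downstream of mTORC1, had a log2 fold change of -0.57 (FDR = 0.0131) and CLTC, the clathrin heavy chain, one of -0.46 (FDR = 0.0491). RPS6KB1 passed with voom, over protein-coding genes only and without MIR21-KO replicate 3, and CLTC passed without MIR21-KO replicate 3. YPEL2 had a positive value of 0.79 (FDR = 0.0147), which passed with voom, over protein-coding genes only and without MIR21-KO replicate 1. The values of GDPD1 (-0.56), HEATR6 (-0.41), TUBD1 (-0.32), DHX40 (-0.06) and RNFT1 (0.08) did not pass the threshold either.

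**Figure D2:**
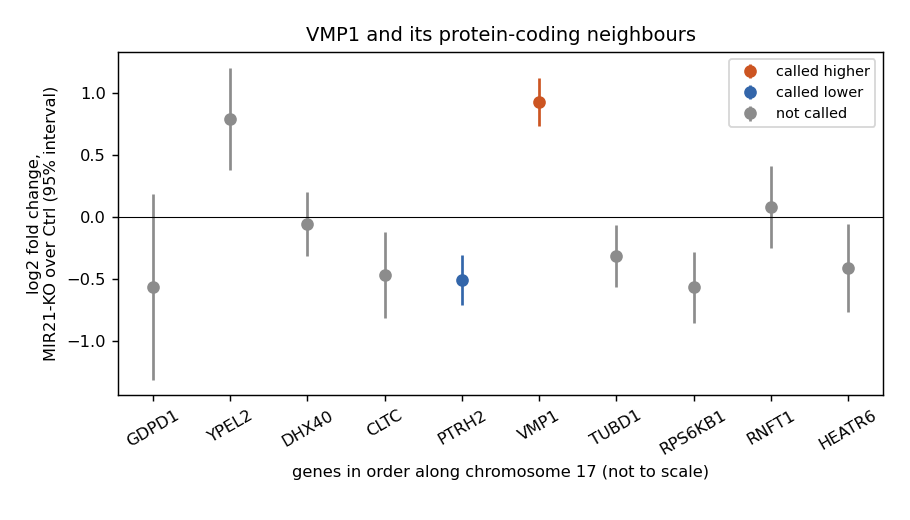
Log2 fold change in MIR21-KO over Ctrl cells (y axis, with 95% intervals from limma, 3 libraries per group) for VMP1 and the 9 tested protein-coding neighbours in their order along chromosome 17. VMP1 is called higher, PTRH2 on its left is called lower, and the other neighbours are not called. The 1 call among 9 neighbours (11.1%) stands against 16.0% of all genes tested.

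TMEM41B, the partner scramblase of VMP1, moved in the opposite direction. Its levels were 15.7, 15.9 and 15.9 FPKM in Ctrl and 11.4, 11.6 and 12.4 FPKM in MIR21-KO, with no overlap between the groups. The mean fell from 15.9 ± 0.110 to 11.8 ± 0.558 FPKM (SD, n = 3 each), a log2 fold change of -0.43 ± 0.069 (SE) with an FDR of 0.00484 (limma). The call was lost when Ctrl replicate 1, 2 or 3 or MIR21-KO replicate 2 was left out, with FDRs from 0.0260 to 0.0312. A negative estimate was not particular to TMEM41B. Its relatives TMEM41A and TMEM64, of the further genes below, had -0.51 (FDR = 0.0221) and -0.55 (FDR = 0.0250) by limma and were not called. The ratio of VMP1 to TMEM41B, both in FPKM, lay between 4.49 and 4.88 in Ctrl and between 11.9 and 12.5 in MIR21-KO libraries. This ratio was looked at after the values of both genes were known.

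Genes of the ULK kinase complex, which starts autophagosome formation, were not called (0 of 5 by limma, 1 with an unadjusted p under 0.05). Over all genes tested these shares were 16.0% and 43.2%, and the counts by role below stand against the same shares. ULK2, a kinase of the complex, had a log2 fold change of 0.44 (FDR = 0.0580) and the highest estimate of the complex. ATG101, a subunit that binds ATG13, had the lowest at -0.32 (FDR = 0.118). ULK1, ATG13 and RB1CC1 lay between them.

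The class III PI3-kinase genes were not called either (0 of 6 by limma, 1 with an unadjusted p under 0.05). UVRAG, which directs a form of the complex that acts on endosomes and late autophagosomes, came nearest, with 3.44, 3.28 and 3.68 FPKM in Ctrl and 2.37, 2.84 and 2.61 FPKM in MIR21-KO. Its groups did not overlap, but its log2 fold change of -0.40 had an FDR of 0.0399. BECN1, the Beclin 1 gene, had a log2 fold change of 0.02 with a 95% interval from -0.17 to 0.20. ATG14, PIK3C3, PIK3R4 and AMBRA1 ranged from -0.30 to 0.26. PIK3C3, the catalytic subunit, had the lowest level of all members, at 1.57 ± 0.202 FPKM in Ctrl cells.

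Of the 5 genes for lipid transfer, ATG9 vesicles and PI3P binding, WIPI1 was called higher. WIPI1 encodes a protein that binds PI3P on the forming membrane. It measured 3.46, 4.26 and 3.804 FPKM in Ctrl and 8.004, 6.89 and 6.89 FPKM in MIR21-KO, so that the lowest MIR21-KO library exceeded the highest Ctrl library. On the log2 scale the rise was 0.90 ± 0.115 (SE; FDR = 0.00202, limma). Without Ctrl replicate 1, Ctrl replicate 3 or MIR21-KO replicate 2 the FDR was 0.0113, 0.0137 and 0.0127. Exons of other genes on the opposite strand cover 28.1% of the WIPI1 exons, and the strand setting of the counting is not stated. The related WIPI2 had a log2 fold change of 0.07 with a 95% interval from -0.17 to 0.30, and ATG2A, ATG2B and ATG9A lay between -0.15 and 0.02.

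None of the 6 conjugation genes (ATG3, ATG5, ATG7, ATG10, ATG12, ATG16L1) and none of the 4 ATG4 protease genes was called by limma, and none of these 10 had an unadjusted p under 0.05. The conjugation genes ranged from -0.20 to 0.03 in log2 fold change and the proteases, which trim ATG8 proteins before conjugation and release them afterwards, from -0.05 to 0.20. ATG10, the E2 enzyme for ATG12, was the second most abundant member at 24.2 ± 1.87 FPKM in Ctrl cells and 24.9 ± 3.12 FPKM in MIR21-KO cells. Exons of RPS23, a ribosomal protein gene, cover 6.86% of the ATG10 exons on the opposite strand, and what this adds to the level was not tested. The 95% interval of ATG4C reached from -0.52 to 0.48.

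**Figure D3:**
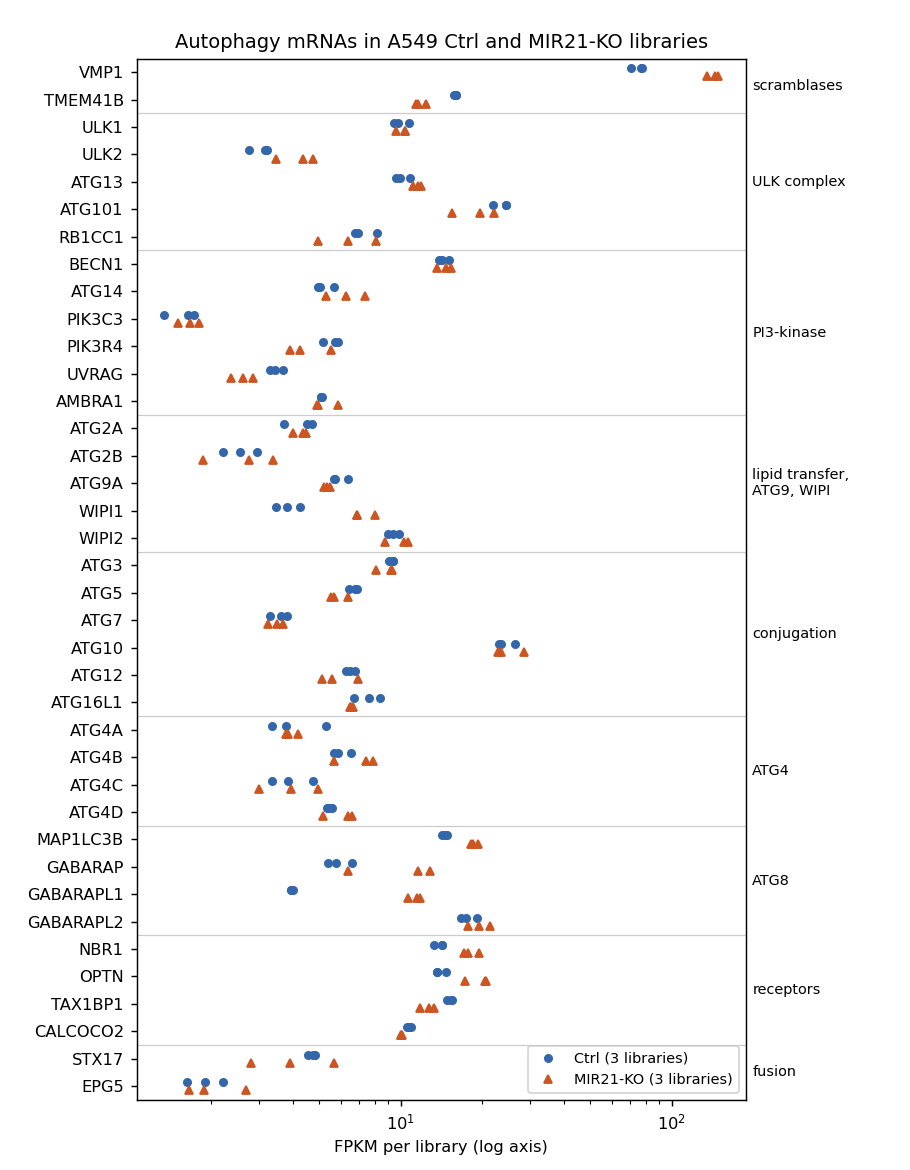
FPKM of the 38 autophagy genes (x axis, log scale) in each of the 3 Ctrl (circles) and 3 MIR21-KO libraries (triangles), grouped by role. VMP1 stands above the others in every library, and GABARAPL1 and WIPI1 show a clear gap between the groups.

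The ATG8 proteins had the largest rise of a single member. GABARAPL1 measured 3.94, 3.94 and 3.99 FPKM in Ctrl and 11.5, 11.8 and 10.7 FPKM in MIR21-KO. The 3 Ctrl libraries were nearly alike, and all MIR21-KO libraries were well above them. Exons of AC115676.1 cover 8.05% of the GABARAPL1 exons on the opposite strand, and what this adds to the level was not tested. The mean went from 3.96 ± 0.0297 to 11.3 ± 0.591 FPKM (SD, n = 3 each), a log2 fold change of 1.49 ± 0.080 (SE) with an FDR of 8.99e-05 (limma).

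MAP1LC3B, which encodes the LC3B protein commonly used to follow autophagosomes, rose less. Its libraries measured 14.8, 14.2 and 14.5 FPKM in Ctrl and 18.2, 18.4 and 19.2 FPKM in MIR21-KO, again without overlap. On the log2 scale it rose by 0.36 ± 0.065 (SE; FDR = 0.00752, limma). The call was lost without any 1 library other than MIR21-KO replicate 3, with FDRs of up to 0.0399, and also when the values were scaled by total reads (FDR = 0.0181). Of all stretches of 50 bases in the MAP1LC3B transcripts, 4.82% also occur in its copy MAP1LC3B2, and the treatment of shared reads is not stated.

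GABARAP had values of 5.41, 6.61 and 5.74 FPKM in Ctrl and 12.8, 11.5 and 6.40 FPKM in MIR21-KO. MIR21-KO replicates 1 and 2 lay above all Ctrl libraries, whereas MIR21-KO replicate 3 lay within their range. The log2 fold change of 0.72 ± 0.255 (SE) did not pass (FDR = 0.0723, limma), and without MIR21-KO replicate 3 it was 1.03 with an FDR of 0.00147. Other genes overlap 30.5% of the GABARAP exons on the same strand and 25.2% on the opposite strand. GABARAPL2 was not called, with a log2 fold change of 0.13 and a 95% interval from -0.09 to 0.36.

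**Figure D4:**
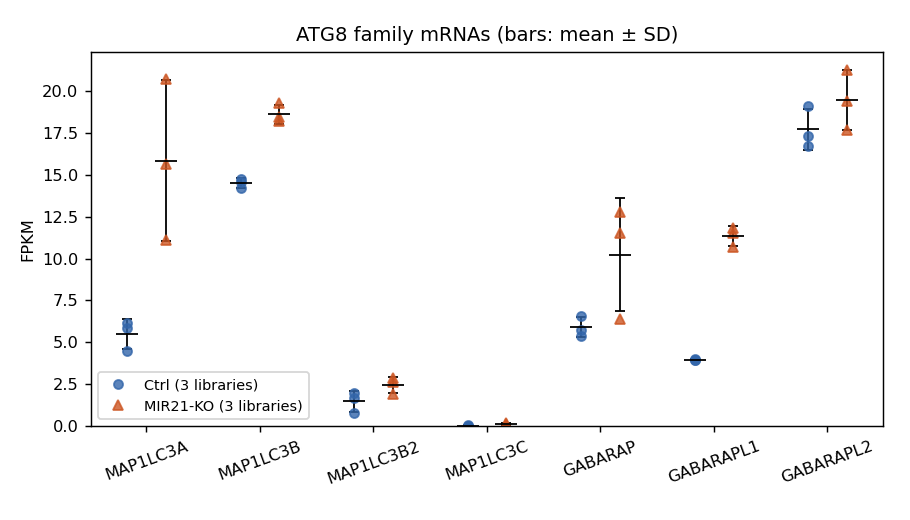
FPKM of 7 ATG8 family genes (y axis) in the 3 Ctrl (circles) and 3 MIR21-KO libraries (triangles), with horizontal marks for the mean and bars for the SD. GABARAPL1 and MAP1LC3B separate the groups with little spread, while the MIR21-KO libraries of MAP1LC3A and GABARAP are spread widely.

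The make-up of the ATG8 transcripts, which was examined after the single values were known, shifted with these genes. Together the 7 ATG8 genes summed to 47.9 to 50.5 FPKM in Ctrl and 67.1 to 87.1 FPKM in MIR21-KO libraries. GABARAPL1 made up 7.80% to 8.22% of this sum in Ctrl and 13.2% to 15.9% in MIR21-KO. MAP1LC3A gained the most, from 11.2% ± 1.66 to 19.97% ± 3.61 (SD, n = 3 each). The share of MAP1LC3B was 29.6% ± 1.32 in Ctrl and 24.2% ± 4.04 in MIR21-KO. GABARAPL2 had the largest share in Ctrl, 36.0% ± 1.83 (SD, n = 3), and made up 24.99% ± 1.17 in MIR21-KO. These falling shares did not go with lower levels. Mean FPKM was 17.7 in Ctrl and 19.4 in MIR21-KO for GABARAPL2, and 14.5 and 18.6 for MAP1LC3B. The LC3 genes together held 43.9% ± 2.36 in Ctrl and 47.5% ± 0.894 in MIR21-KO.

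Of the 4 cargo receptor genes, OPTN was called. Optineurin links ubiquitin-marked cargo such as damaged mitochondria to ATG8 proteins. OPTN measured 13.6, 14.6 and 13.6 FPKM in Ctrl and 20.4, 20.7 and 17.3 FPKM in MIR21-KO, where replicate 3 was the lowest but still above Ctrl. The rise of 0.47 ± 0.092 (SE) on the log2 scale was just inside the threshold (FDR = 0.00964, limma). The call was lost without any 1 library other than MIR21-KO replicate 3, with FDRs from 0.0216 to 0.0482.

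NBR1, another receptor for ubiquitin-marked cargo, fell just outside the threshold. It measured 14.2, 13.2 and 14.2 FPKM in Ctrl and 17.05, 17.7 and 19.4 FPKM in MIR21-KO, with a log2 fold change of 0.38 ± 0.079 (SE) and an FDR of 0.0126 (limma). It passed with voom on recovered reads (FDR = 0.00719). TAX1BP1 had a negative estimate of -0.27 (FDR = 0.0353) and CALCOCO2, the NDP52 gene, one of -0.09 (FDR = 0.340). All 4 receptor genes had groups that did not overlap, as had 48.1% of all genes tested, OPTN and NBR1 with higher and TAX1BP1 and CALCOCO2 with lower values in MIR21-KO.

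The fusion genes STX17, a SNARE of the autophagosome, and EPG5, a tether, were not called (0 of 2 by limma, 0 with an unadjusted p under 0.05). STX17 had a wide spread in MIR21-KO, with 2.80, 3.91 and 5.66 FPKM against 4.81, 4.53 and 4.75 FPKM in Ctrl. The value of MIR21-KO replicate 3 exceeded all Ctrl libraries, and those of replicates 1 and 2 were below them.

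Over the 32 members not called, log2 fold changes ranged from -0.40 to 0.72. The 95% interval stayed within a 2-fold change for 31 of them, the exception being GABARAP, and within a 1.5-fold change for 24. Of all 38 members, 27 had a larger SD of log2 values in MIR21-KO than in Ctrl, with medians of 0.125 and 0.092. Over all genes tested these medians were 0.209 and 0.125. MIR21-KO replicate 3 was the highest MIR21-KO library in 15 members and the lowest in 14.

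Seed matches of miR-21-5p were counted in the longest annotated 3′ UTR of each member. Matches of 7 bases or more were present in 3 of 38 members (7.89%), against 14.4% of 11644 protein-coding genes tested. These were PIK3C3, PIK3R4 and EPG5, and none of the 3 was called (log2 fold changes of 0.08, -0.30 and 0.09). Of the other members, 11 held only a match of 6 bases (28.9%, against 13.5% of those protein-coding genes) and 24 held none (63.2%, against 72.1%). The sites are shown on the strand of the mRNA, as read from GENCODE 29 transcripts (GRCh38), with the matched bases in capitals. In PIK3C3 these pair with the seed, bases 2 to 8, and in PIK3R4 and EPG5 with bases 2 to 7, followed by an A opposite base 1. They lie at chr18:42083768-42083797 and chr18:42085740-42085769 (plus strand, PIK3C3), chr3:130678979-130679008 (minus strand, PIK3R4) and chr18:45848430-45848459 (minus strand, EPG5).
PIK3C3 first site: tctgcccaaggATAAGCTgctggtgagagc
PIK3C3 second site: gagaaatggaaATAAGCTcaaaatgggtag
PIK3R4 site: aaagatggttgTAAGCTAttatagtataaa
EPG5 site: gggaggcacatTAAGCTAgtggcaagttga

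Of the 6 members called, 4 held no match in this UTR. OPTN held 2 matches of 6 bases, at chr10:13138019-13138048 and chr10:13138039-13138068 (plus strand). They are shown because OPTN was called, and a match of letters is a description, not a measured site.
OPTN first match: attttctgtatTAAGCTcatttggcttcat
OPTN second match: ttggcttcattTAAGCTgtatacttagtca

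Genes of the wider pathway were examined in the same fit. Of 63 further autophagy genes, 58 were tested and 8 (13.8%, against 16.0% of all genes) were called, 6 higher and 2 lower. At an FDR of 0.05 the shares were 44.8% and 32.0%, and that of the 38 members was 23.7%. ATG9B, MAP1LC3C, GABARAPL3 and RETREG1 were among those with too low values to be tested. MAP1LC3A, another LC3 gene, rose from 4.50, 5.86 and 6.18 FPKM to 20.7, 15.6 and 11.1 FPKM, a log2 fold change of 1.47 ± 0.235 (SE) with an FDR of 0.00467 (limma). TP53INP2, which binds ATG8 proteins, rose from 2.94, 2.44 and 2.85 FPKM to 6.11, 6.38 and 7.48 FPKM (log2 fold change 1.25, FDR = 0.000770). Also higher were the receptor genes CALCOCO1 (1.07) and BNIP3L (0.48), the WIPI relative WDR45 (0.77) and PRKAG1 (0.59), a regulatory subunit of AMPK. The 3 MIR21-KO libraries of MAP1LC3A were spread more widely than those of the other called genes named here.

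The 2 genes called lower were MITF and BNIP3. MITF, a transcription factor of the family that drives lysosomal and autophagy genes, fell from 2.62, 2.09 and 2.28 FPKM to 0.684, 0.772 and 0.804 FPKM, a log2 fold change of -1.51 ± 0.163 (SE) with an FDR of 0.00106 (limma). Its relative TFEB had a positive estimate of 1.05 but did not pass (FDR = 0.0132). TFE3, a further relative, had a Ctrl mean of 30.5 FPKM, against 2.33 FPKM for MITF. Its estimate of 0.26 did not pass either (FDR = 0.0554). BNIP3, a mitophagy receptor related to BNIP3L, fell by 0.74 on the log2 scale (FDR = 0.00114), so these related receptors moved in opposite directions. SQSTM1, the p62 receptor gene, was the most abundant gene of the wider list at 118.6 ± 1.74 FPKM in Ctrl, and its log2 fold change of 0.12 was not called (FDR = 0.410). Without Ctrl replicate 1, 2 or 3 the list held 4, 4 and 3 calls (6.90%, 6.90% and 5.17%, against 5.59%, 5.76% and 5.45% of all genes). Without MIR21-KO replicate 1, 2 or 3 it held 9, 3 and 16 calls (15.5%, 5.17% and 27.6%, against 13.7%, 4.80% and 21.2% of all genes). None of the 13 further fusion factors was called by limma, against 16.0% of all genes tested. An unadjusted p under 0.05 was found for 3 of them, against 43.2% of all genes.

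**Figure D5:**
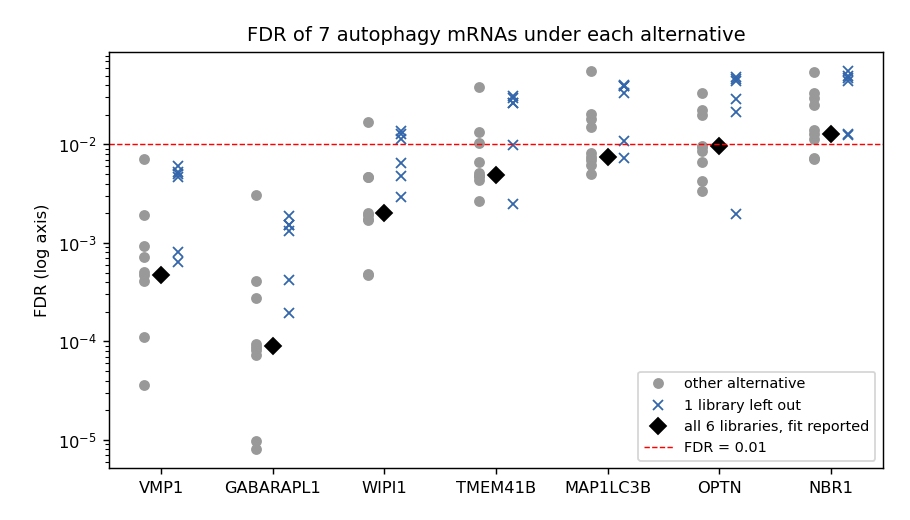
FDR (y axis, log scale) of the 6 called autophagy genes and NBR1 in the reported limma fit (diamonds), with 1 library left out (crosses) and in the other alternative analyses (circles), with the threshold of 0.01 as a dashed line. VMP1 and GABARAPL1 stay below the line throughout, whereas the other called genes cross it.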

How the data were processed

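The sample titles gave the group and the replicate number of each library. The authors deposited 1 table of FPKM values per gene and library, with gene lengths and with their own log2 fold changes, p-values and FDRs, which were not used. The submitters' processing notes name cutadapt 1.14, HISAT2 2.1.0, SAMtools 1.5, featureCounts 1.5.3, edgeR 3.18.1 and the build hg38. Libraries were strand-specific per the labels, but the strand setting of the counting is not stated.

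Limma 3.58.1 (R 4.3.3) was fitted to log2(FPKM + 0.1) of the genes whose mean reached 0.5 FPKM, without covariates and with the trend and robust options. Two-sided p-values were corrected over all 16006 genes (Benjamini-Hochberg), and genes were called at an FDR under 0.01, the threshold of the study. Fold changes on this scale understate the change of low genes. FPKM times length gave whole multiples of 1 step per library for 100% of values (tolerance 0.01), so reads were recovered and tested with voom as an alternative. A count model was not used for the FPKM. Positions and UTRs came from GENCODE 29, which matched 99.4% of gene identifiers. No interval covers more than the spread between libraries.

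The fit was tested on simulated libraries whose dispersion was estimated per group from these data. False calls were rare, but more of the known changes were missed than recovered, and voom recovered most of them. Fixed dispersions had been tried first. With a larger one limma missed most changes, with a smaller one, set after that outcome was seen, it recovered most, and the estimate replaced both. A gene not called here may therefore still differ.

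The members and lists were chosen with earlier results of these data known. All 38 members are accounted for, with values per library for called genes. Of the further genes those called are named, as are all VMP1 neighbours. Values per library of other genes, the ratio of VMP1 to TMEM41B and the ATG8 shares were chosen after values were seen. So were TFEB, TFE3, SQSTM1, TMEM41A, TMEM64 and the check for copies. Some items are not reported here. Figures were drawn with matplotlib 3.10.9.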

Additional observations from a re-analysis of the deposited data

How the results depend on the processing

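No direction of VMP1 or of the other called members reversed in any of the 16 alternatives. Those that changed only the filter, the variance fit, the block or the threshold kept the same estimate, so their direction could not reverse. Only a changed pseudocount, scaling, voom or a library left out could move it. VMP1 kept a log2 fold change of 0.88 to 0.96 with FDRs from 3.59e-05 to 0.00704, and GABARAPL1 one of 1.31 to 1.53. The 6 calls among the members became 3 with no filter on low values (7.89%, against 6.16% of all genes), 3 for limma without trend and robust fitting (7.89% against 12.2%), and 2 to 7 with 1 library left out. They became 7 with voom (18.4% against 21.5%), 7 over protein-coding genes only (18.4% against 27.8%) and 9 at an FDR of 0.05 (23.7% against 32.0%). The 8 calls among the further genes became 13 with voom (22.4% against 21.5%), 26 at an FDR of 0.05 (44.8% against 32.0%), and 3 to 16 with 1 library left out. The 1 call among the VMP1 neighbours became 3 with voom (33.3% against 21.5%), 3 over protein-coding genes only (33.3% against 27.8%), 4 at an FDR of 0.05 (44.4% against 32.0%), with YPEL2 the 1 higher gene in each, and 0 to 3 with 1 library left out. It became 0 in limma with no filter (against 6.16% of all genes) and 0 in limma without trend and robust fitting (against 12.2%). In each case 6 of 9 neighbours had an unadjusted p under 0.05, as in the reported fit, where 43.2% of all genes tested had one. The 3 members with seed matches of at least 7 bases were also 3 over any annotated 3′ UTR.

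With the replicate number as a block, 2 members (5.26%), 1 further gene (1.72%) and 0 neighbours were called by limma, against 4.07% of all genes (4 neighbours at an unadjusted p under 0.05). Same-numbered libraries did not deviate together (correlations of -0.17, -0.02 and -0.02), which gives no pairing of the libraries. The cause of these shifts in counts was not tested. Precision is limited by 3 libraries per group and by the wider spread in MIR21-KO. Analyses of NBR1 and GABARAP were added after seeing the data.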

Other observations

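The letters CACGTG, the core of the E-box bound by MiT/TFE factors, which read the same on both strands, were searched in RefSeq promoters (GRCh38.p14, a short window around each gene start). Promoters were matched for 33 of the 38 members, and 2 of them (6.06%) held it, ATG3 and ATG14, against 8.78% of all promoters and 12.8% of those of genes tested. Neither gene was called. The absence of these letters from the other windows says nothing about the factors. This search was chosen after values were seen.

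Over the 38 members, gene length and the difference in log2 FPKM between MIR21-KO replicates 3 and 1 had a Spearman correlation of 0.42, and over all genes tested one of 0.31. For Ctrl replicates 3 and 1 these were -0.33 and -0.15. These are descriptions across genes of the same pairs of libraries.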
